A study of Mus musculus with 14 samples.

Results

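Cd2, Cd83, Cd55, Cd40, Tnfrsf13c, Cr2 and Slamf6 encode surface proteins of B cells, grouped here under the label of late B maturation. These 7 genes, of 18193 measured in mouse bone marrow progenitors, were chosen by symbol: every probe set annotated with one of them was taken, 14 of 45101. Of these, 13 carried a single symbol, and the probe set of highest mean over all arrays led for each gene; 4 genes had 1 such probe set and 3 genes (Cd55, Cd40, Slamf6) had 3. The 14th was annotated to both Cd55 and Cd55b, its near-identical neighbour, and was assigned to neither; it read the lowest value of the table on 13 of 14 arrays.

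The 14 arrays fall into 6 groups of C57Bl6 mouse cells. In 2 groups, of 3 arrays each, fetal liver cells of day 15 embryos carrying a λ5 reporter, either Pax5 knockout (Pax5KO engrafted) or wild type (WT engrafted), were put into sublethally irradiated wild type mice, and B220+ reporter+ marrow cells were sorted 4 weeks later. The other 4 groups, of 2 arrays each, were sorted from mice without transplant: Ly6D- CLP, Ly6D+ CLP (common lymphoid progenitors), ProB and PreB cells. The labels give 8 to 12 weeks as the age of the mice in every group. The reporter follows λ5, a surrogate light chain made before the light chain genes are joined, so the sort itself limits the engrafted cells to reporter-bearing stages. The gates of the other groups and the deleted part of Pax5 are not stated.

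B cell precursors first rearrange the heavy chain gene as pro-B cells and then, after pre-B receptor signalling, the light chain gene as pre-B cells. Pax5 is the transcription factor that commits these cells to the B lineage. Receptors for T cell help (CD40), for the survival cytokine BAFF (BAFF receptor, encoded by Tnfrsf13c) and for complement fragments (CD21, encoded by Cr2) serve mature B cells, while CD2 is a textbook mark of the pro-B to pre-B passage in the mouse.

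Promoter sequences of 4 of the 7 genes were at hand in RefSeq (GRCm38.p6), and they are shown because these genes hold the differing patterns of the set: Cd55 appeared at PreB, Tnfrsf13c rose from an intermediate level, Slamf6 was present before PreB, and Cr2 stayed near the lowest value. Each line gives the 250 bases before the start used by the table, 5′ to 3′ on the gene's strand, with motif matches in capitals. The start given for Cd55 lies inside the gene's annotated span.
Cd55, chr1:130462745-130462994, minus strand: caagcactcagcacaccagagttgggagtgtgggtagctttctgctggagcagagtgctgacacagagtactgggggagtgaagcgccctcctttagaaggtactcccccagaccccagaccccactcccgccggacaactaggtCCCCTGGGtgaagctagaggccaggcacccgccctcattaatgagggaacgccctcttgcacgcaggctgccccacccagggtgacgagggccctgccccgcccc
Tnfrsf13c, chr15:82224381-82224630, minus strand: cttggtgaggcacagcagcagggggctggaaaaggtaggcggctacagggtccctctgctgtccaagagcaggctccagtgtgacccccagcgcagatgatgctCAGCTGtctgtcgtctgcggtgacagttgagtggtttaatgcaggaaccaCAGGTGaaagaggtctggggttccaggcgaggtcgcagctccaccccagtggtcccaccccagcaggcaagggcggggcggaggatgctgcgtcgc
Cr2, chr1:195176720-195176969, minus strand: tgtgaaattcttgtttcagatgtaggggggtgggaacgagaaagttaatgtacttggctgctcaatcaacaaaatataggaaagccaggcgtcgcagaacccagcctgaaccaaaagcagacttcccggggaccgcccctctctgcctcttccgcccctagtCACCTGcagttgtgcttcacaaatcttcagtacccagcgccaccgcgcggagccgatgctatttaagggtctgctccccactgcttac
Slamf6, chr1:171917212-171917461, plus strand: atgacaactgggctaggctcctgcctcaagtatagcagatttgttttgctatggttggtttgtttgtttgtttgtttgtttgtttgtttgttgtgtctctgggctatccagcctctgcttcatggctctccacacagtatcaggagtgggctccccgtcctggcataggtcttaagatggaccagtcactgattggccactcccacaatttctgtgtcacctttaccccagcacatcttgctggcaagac

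Motifs were searched on both strands: the E-boxes CAGGTG and CAGCTG, which E proteins such as E2A can bind, the EBF1 core CCCNNGGG and a longer palindromic EBF1 form that contains it, an NF-κB form, a TATA box TATAAA and an octamer ATGCAAAT. CAGGTG was found in Tnfrsf13c, 96 bases before the start, and on the opposite strand (as CACCTG) in Cr2, 88 bases before it; 17.2% of 32841 promoter windows of this length held it. Tnfrsf13c also held CAGCTG (13% of windows), and Cd55 held the EBF1 core (11.8%). The longer EBF1 form (0.780% of windows), the NF-κB form (0.356%), the TATA box (12.4%) and the octamer (1.60%) had no match in the 4 windows, and Slamf6 had no match at all. A match describes letters and is not a binding site.

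Values are log2 signals as deposited, so 1 unit is a 2-fold change, and the lowest value of the table is 2.32. A group whose arrays were all within 0.5 of it is called at the floor. A difference from such a group is a lower bound of the true one if the other group has no array at the lowest value. No difference is given where both groups were at the floor. Changes are limma estimates from all 14 arrays with their standard error (SE), and a gene was called at a Benjamini-Hochberg adjusted p under 0.05 over all 18193 genes. The labels call the arrays of a group biological replicates without naming the animals, so p-values measure the spread between these samples.

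Pax5 itself read 7.57 to 7.95 on the Pax5KO and 6.18 to 6.76 on the WT engrafted arrays, which does not test the genotype, since the deleted part is unknown. B lineage markers fixed for this check (7 of 8 measured) had a mean level of 10.7 to 10.9 on Pax5KO and 11.3 to 11.6 on WT engrafted arrays, and of 10.2 to 10.5 in ProB and PreB. They lay at 5.17 and 5.28 in Ly6D- CLP. Xist, the transcript that marks female cells, read above 12 on all 3 Pax5KO arrays and on WT engrafted array 3, and 10.7 and 11.5 in ProB. It was under 3 on the other arrays, PreB included, so ProB and PreB differ in this transcript on every array.

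The label of late maturation held in part. Along the wild type stages, 4 of the 7 genes (Cd2, Cd83, Cd55 and Cd40) lay under 4 on every array before PreB and above 6 there. Tnfrsf13c was of intermediate level in Ly6D+ CLP and ProB, and also read 6.66 on Ly6D- CLP array 1. The brightest Slamf6 probe set rose from Ly6D- to Ly6D+ CLP. Its other probe sets were not called there, and 4 of 12 alternatives lost the call. Cr2 stayed under 3.

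**Figure D1:**
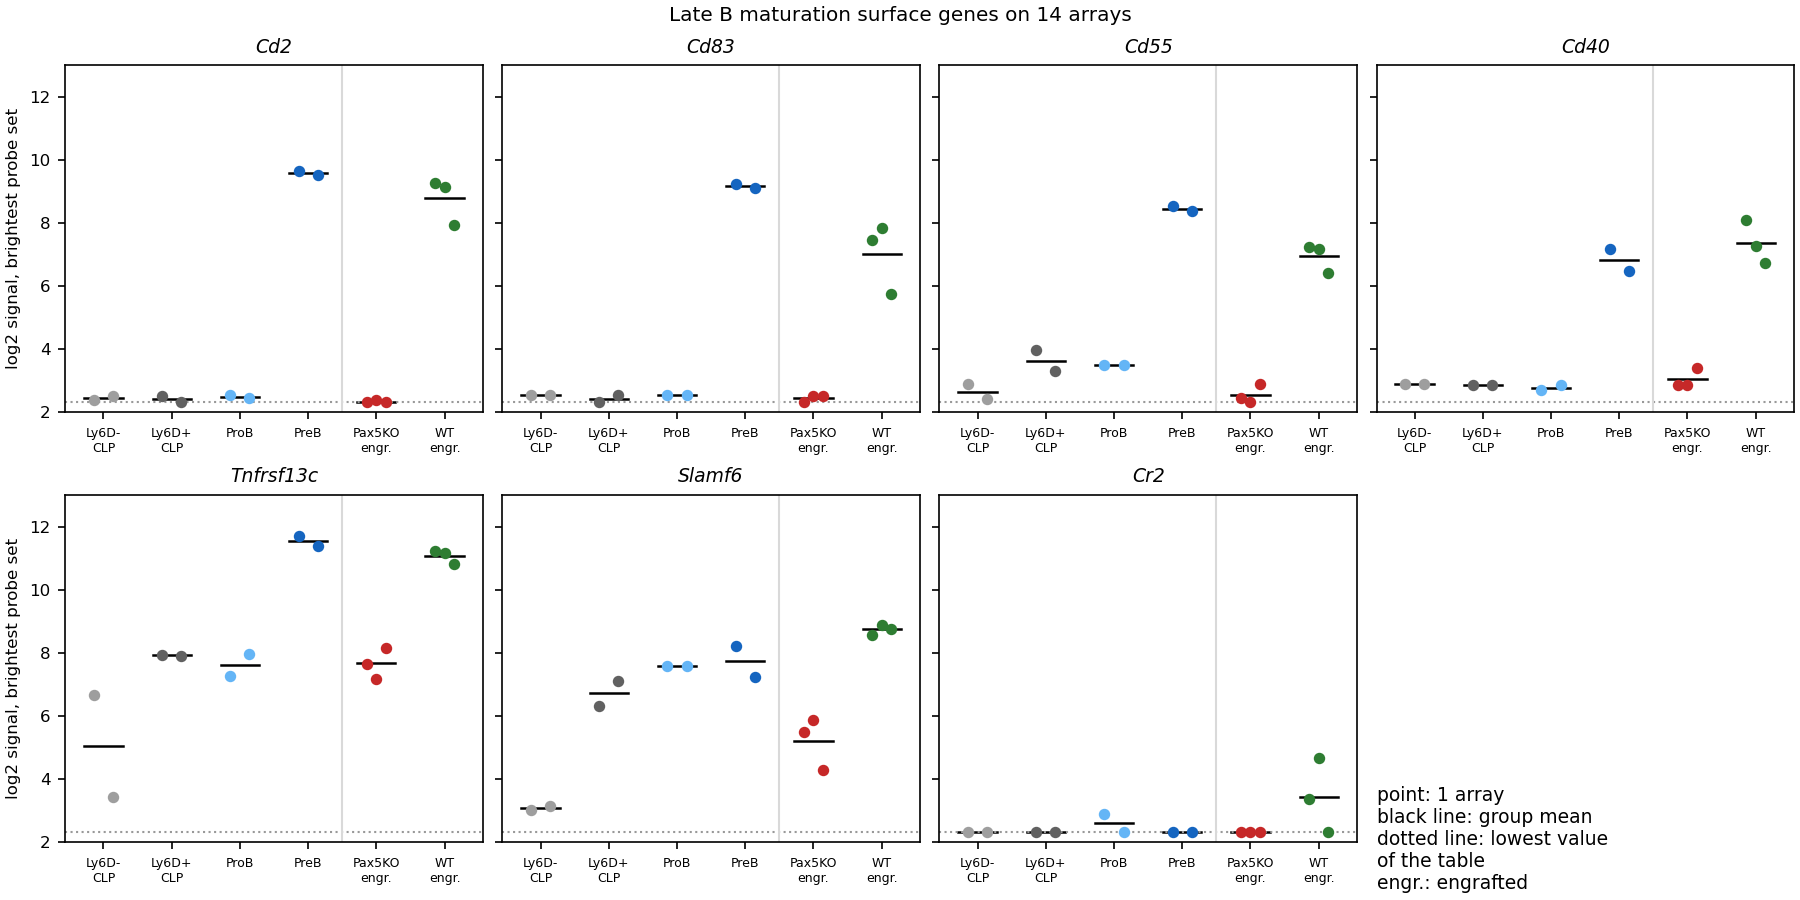
Log2 signal (y axis) of the brightest probe set of each gene on every array (points), by group (x axis, stages without transplant left of the grey line, engrafted groups right of it), with group means as black lines and the lowest value of the table dotted. Cd2, Cd83, Cd55 and Cd40 are high in PreB and WT engrafted cells, and Cr2 is above 3 on WT engrafted arrays 1 and 2 only.

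Setting Pax5KO beside WT engrafted cells asked what the loss of Pax5 does to these transcripts in reporter+ marrow cells. Of the 7 genes, 6 were lower in Pax5KO cells and none higher, where 2.29% of all genes were called lower, 3.64% higher and 5.94% either way. The groups did not overlap for these 6, where 7.65% of all genes had every Pax5KO array below every WT engrafted array and 11.9% every one above. The median difference of the 7, several of them bounds at the floor, was -4.32, against 0 over all genes. Cr2 was not called. In bulk samples, fewer cells with a transcript and less transcript per cell cannot be told apart.

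Cd2, an adhesion receptor of lymphocytes that binds CD48 in the mouse, read 2.32, 2.39 and 2.32 in Pax5KO cells, against 9.28, 9.13 and 7.93 in WT engrafted cells. All 3 Pax5KO arrays were at the floor, and WT engrafted array 3 was the lowest of its group. Cd2 fell by at least 6.43 (SE 0.30, limma adjusted p = 7.34e-06), the largest difference among the 7 genes.

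Cd83, an immunoglobulin-superfamily protein of activated B and dendritic cells that stabilises surface MHC class II, read 2.32, 2.53 and 2.53 in Pax5KO cells. In WT engrafted cells it read 7.45, 7.85 and 5.76. Every Pax5KO array lay at the floor and array 3 was again the lowest of the WT group. The fall was at least 4.56 (SE 0.45, limma adjusted p = 0.000486).

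Cd55, decay-accelerating factor, which shields cells from complement, read 2.47, 2.32 and 2.89 in Pax5KO cells, against 7.24, 7.17 and 6.43 in WT engrafted cells. Pax5KO array 2 was at the lowest value of the table, and no WT engrafted array was. The fall was thus at least 4.38 (SE 0.27, limma adjusted p = 3.73e-05), with no overlap. The other probe sets of Cd55 were at the floor on all Pax5KO arrays and fell by at least 3.29 (SE 0.30) and 3.30 (SE 0.38), both called in the fit over probe sets.

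Cd40, the receptor for CD40 ligand of helper T cells, read 2.86, 2.87 and 3.40 in Pax5KO cells and 8.10, 7.27 and 6.74 in WT engrafted cells. The 3.40 of Pax5KO array 3 was the highest value of its group and still over 3 units under the lowest WT array. The 2.86 recurs on other arrays as a background value of this probe set, so Cd40 fell by at least 4.32 (SE 0.33, limma adjusted p = 0.000122). Its second probe set, at the floor in Pax5KO cells, fell by at least 5.07 (SE 0.48) and was called. Its dimmest one was not: it read 2.36, 2.79 and 2.79 in Pax5KO cells, against 6.46, 3.96 and 3.35 in WT engrafted cells, a difference of -1.94 (limma adjusted p = 0.228 over probe sets).

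Tnfrsf13c, the BAFF receptor through which mature B cells are kept alive, read 7.65, 7.17 and 8.16 in Pax5KO cells, against 11.21, 11.15 and 10.80 in WT engrafted cells. The signal without Pax5 was thus lower but clearly above the floor. Tnfrsf13c fell by 3.39 (SE 0.69, limma adjusted p = 0.0223). This call is the least secure of the 6: with the array number as a block the adjusted p was 0.0792, and it lay between 0.0513 and 0.0887 without Pax5KO array 1 or 2 or any 1 of the WT engrafted arrays, at differences from -3.52 to -3.15.

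Slamf6 (Ly108), a self-binding receptor of the SLAM family on B, T and NK cells, read 5.48, 5.85 and 4.29 in Pax5KO cells and 8.58, 8.88 and 8.76 in WT engrafted cells. Pax5KO array 3 was the lowest, and the WT arrays lay close together. Slamf6 fell by 3.53 (SE 0.42, limma adjusted p = 0.00145). Its other probe sets fell by 3.08 (SE 0.50) and 4.44 (SE 0.96), both called.

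Cr2, the complement receptor that lowers the threshold of B cell activation, was at the lowest value on all 3 Pax5KO arrays and on WT engrafted array 3, and read 3.35 and 4.66 on WT engrafted arrays 1 and 2. The groups overlap at the lowest value, and the difference of -1.12 (SE 0.48) was not called (limma adjusted p = 0.306). It is not a bound, since the WT engrafted mean also holds a value at the floor. Without WT engrafted array 3 the difference was at least -1.68 (limma adjusted p = 0.0275).

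Over all 13 probe sets of the 7 genes, 11 were called lower and none higher in Pax5KO cells, where 1.69% of all probe sets were called lower and 2.31% higher.

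WT engrafted array 3 had the group's lowest values of Cd2, Cd83, Cd55, Cd40, Tnfrsf13c and Cr2, and is also the only WT array with high Xist. With a term for high Xist, which leaves the Pax5KO mean against that array alone, 5 genes were called; the spread then comes from the other groups, and that 1 array is assumed to vary like them. The differences were at least -5.58 for Cd2, -3.29 for Cd83, -3.87 for Cd55 and -3.70 for Cd40, and -3.55 for Slamf6. Tnfrsf13c differed by -3.14 (limma adjusted p = 0.195), and Cr2 was at the lowest value on all the arrays so compared. Without both arrays numbered 3, an alternative chosen after the data were seen, the same 5 genes were called. Their differences lay between -6.85 (Cd2) and -3.06 (Slamf6). Both arrays numbered 3 also had the widest gap between the 3′ and 5′ ends in their group, which is used as a measure of RNA quality. The actin and Gapdh gaps were 3.47 and 5.44 on WT engrafted array 3. They were 2.51 and 2.61 on WT engrafted array 1, and 2.56 and 3.02 on array 2. On Pax5KO array 3 they were 4.57 and 5.79. The part of RNA quality was not tested.

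The fixed markers of mature B cells (4 of 6 measured) moved in the same comparison. Their mean level was 3.90 to 4.56 on Pax5KO and 7.18 to 8.50 on WT engrafted arrays. Fcer2a (CD23) was at the floor in Pax5KO cells and read 6.05, 6.40 and 3.11 in WT engrafted cells, again lowest on array 3. T cell markers (6 of 8 measured) reached a mean of at most 2.58 on Pax5KO and 2.56 on WT engrafted arrays, with Cd3e, Cd3d, Cd3g and Cd8a at the floor in both. NK markers (5 of 6) were at 3.60 to 4.04 on Pax5KO arrays and at most 2.76 on WT engrafted arrays. Of these, Ncr1 and Prf1 were at the floor in both groups. Klrd1 was called higher in Pax5KO cells (3.33, limma adjusted p = 0.00137), while Nkg7 (2.32) and Gzma (0.23) were not called. Dendritic cell markers (7 of 7) were at 4.14 to 4.48 on Pax5KO and 2.91 to 2.95 on WT engrafted arrays. Itgax, Siglech, Xcr1 and Zbtb46 were at the floor in both groups, so this difference comes from Flt3, Ccr9 and Bst2. Markers of granulocytes and monocytes (7 of 8) were at 4.43 to 5.17 on Pax5KO and 4.11 to 5.99 on WT engrafted arrays. Single genes of this list moved in opposite directions. Lyz2 was called higher in Pax5KO cells (2.52, limma adjusted p = 0.0179). S100a8 (-2.31) and S100a9 (-2.13) were lower there without overlap but were not called. Markers of lymphoid progenitors (4 of 4) lay at 6.78 to 7.97 on Pax5KO and 4.86 to 5.49 on WT engrafted arrays. Among them Flt3, a cytokine receptor of early progenitors and also in the dendritic list, read 9.67, 9.98 and 8.74 in Pax5KO cells and 3.66, 3.63 and 3.39 in WT engrafted cells (difference 5.90, SE 0.33, limma adjusted p = 2.23e-05). Kit differed by 3.04 (limma adjusted p = 0.0279), and Cd34 was at the floor in both. The part of these markers, and of a change in the mix of B cell stages, was not tested.

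**Figure D2:**
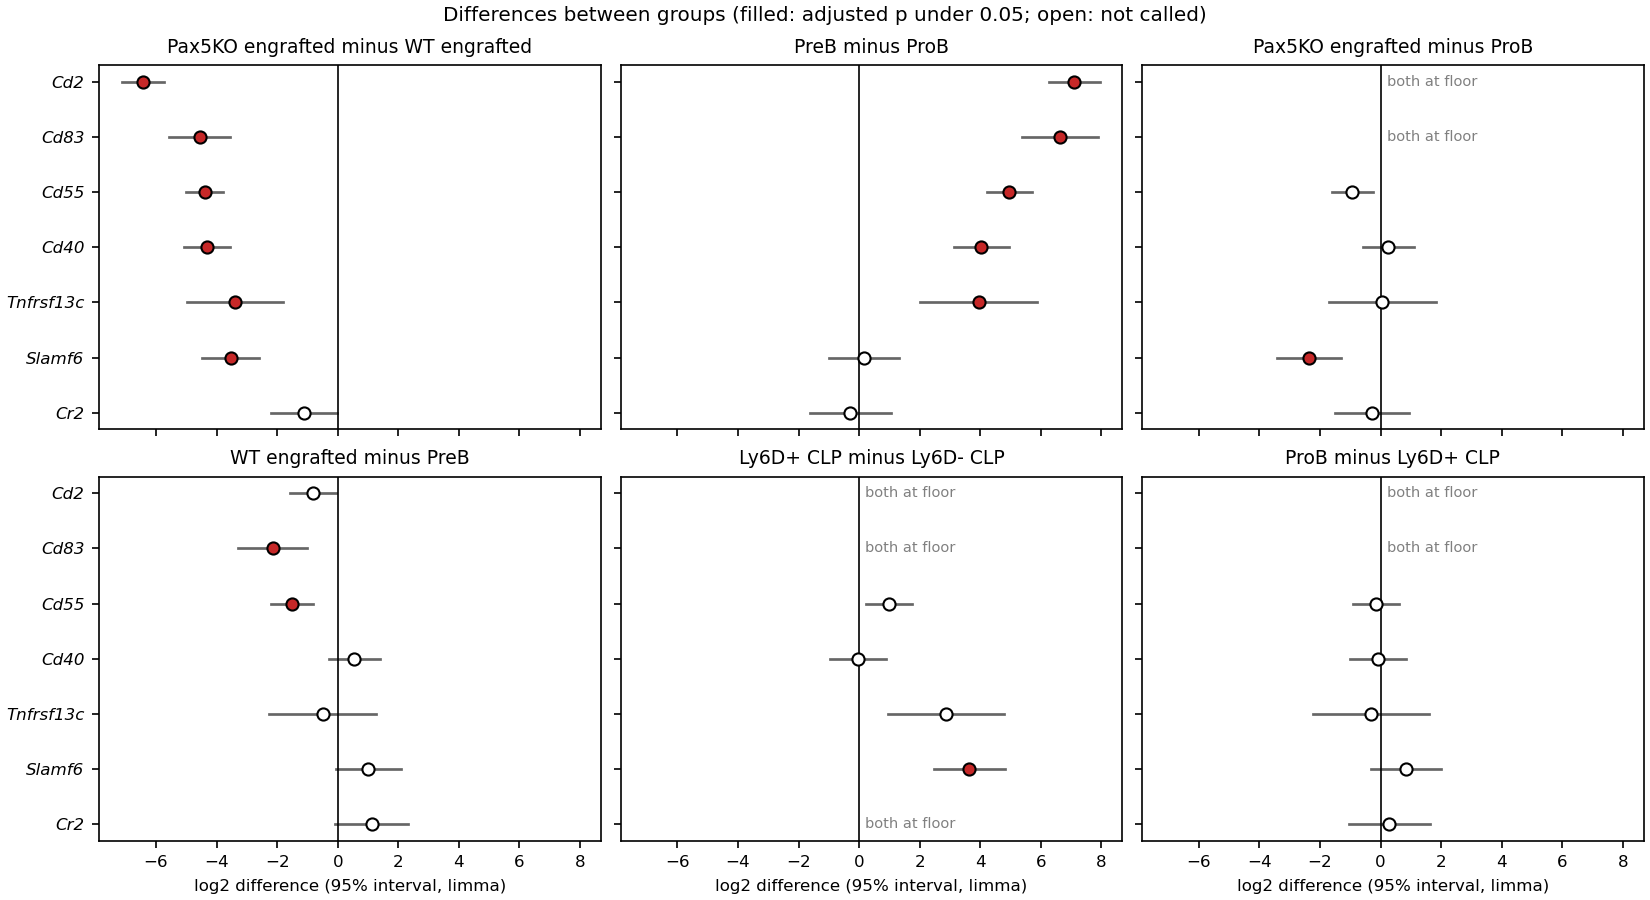
Log2 differences (x axis) of the 7 genes (y axis) in the 6 comparisons, named above each panel, with 95% intervals of the limma fit as bars; filled points were called and open points were not. In Pax5KO minus WT engrafted cells 6 points lie left of 0 and are filled, and in PreB minus ProB cells 5 lie right of 0 and are filled.

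The step from ProB to PreB asked when the transcripts appear in normal development. Of the 7 genes, 5 rose and none fell, where 6.35% of all genes rose, 5.19% fell and 11.5% did either. The median difference was 4.04, against 0 over all genes. Slamf6 and Cr2 were not called.

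Cd2 read 9.66 and 9.52 in PreB cells, against 2.55 and 2.44 in ProB cells, which were at the floor, a rise of at least 7.09 (SE 0.37, limma adjusted p = 1.21e-05). Cd83 read 9.24 and 9.10 in PreB and 2.54 on both ProB arrays, and rose by at least 6.64 (SE 0.55, limma adjusted p = 0.000189). No other gene of the 7 rose this far at any of the 3 wild type steps.

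Cd55 read 8.53 and 8.38 in PreB cells and averaged 3.49 in ProB cells, a rise of 4.96 (SE 0.33, limma adjusted p = 5.46e-05). Cd40 read 7.18 and 6.47 in PreB and 2.71 and 2.86 in ProB, and rose by at least 4.04 (SE 0.40, limma adjusted p = 0.00052). Both kept a wide gap between the groups. The dimmest Cd40 probe set did not follow the other Cd40 probe sets: it read 3.04 and 2.79 in PreB, against 2.79 and 2.88 in ProB (difference 0.08, SE 0.83).

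Tnfrsf13c read 11.71 and 11.38 in PreB cells and 7.25 and 7.95 in ProB cells. It started well above the floor and rose by 3.95 (SE 0.85, limma adjusted p = 0.0186). The call did not hold without any 1 of the 4 arrays, where the limma adjusted p lay between 0.055 and 0.0825.

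Slamf6 read 8.23 and 7.22 in PreB cells, against 7.57 on both ProB arrays. The ProB values lie between the PreB values, and the difference was 0.16 (95% interval -1.002 to 1.32). Its dimmer probe sets differed by 1.28 (SE 0.61) and 0.96 (SE 1.18) and were not called. Cr2 was at the lowest value on both PreB arrays and read 2.89 and 2.33 in ProB.

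Other measures moved with this step. The PreB arrays carried transcripts of other blood cells: Gzma, a protease of cytotoxic cells, read 10.3 and 10.9 in PreB and 2.35 and 2.47 in ProB. S100a8, a granulocyte protein, read 12.0 and 12.8 against 3.18 and 3.29, and Ccr9, a homing receptor of plasmacytoid dendritic and other cells, 10.5 and 10.4 against 2.93 and 2.97. Over the whole lists, NK markers (5 of 6 measured) lay at 5.91 to 6.69 in PreB and 2.66 to 2.83 in ProB. Granulocyte and monocyte markers (7 of 8) lay at 7.63 to 7.78 against 3.28 to 3.39, and dendritic markers (7 of 7) at 4.85 to 4.87 against 3.20 to 3.39. Ncr1, Elane, Itgam and Xcr1 were at the floor in PreB cells, as were Cd3e, Cd3d and Cd3g. Mature B cell markers (4 of 6) lay at 6.76 to 7.06 in PreB and 4.42 to 4.57 in ProB, with Ms4a1 (3.25, limma adjusted p = 0.00278) and Ccr7 (2.80, limma adjusted p = 0.0104) called. The actin probe sets differed by 7.27 and 6.71 between the 3′ and 5′ ends in PreB and by 2.73 and 3.67 in ProB; this gap is used as a measure of RNA quality. The part of these markers and of RNA quality in the rise was not tested, and the change in Xist cannot be told apart from the stage.

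**Figure D3:**
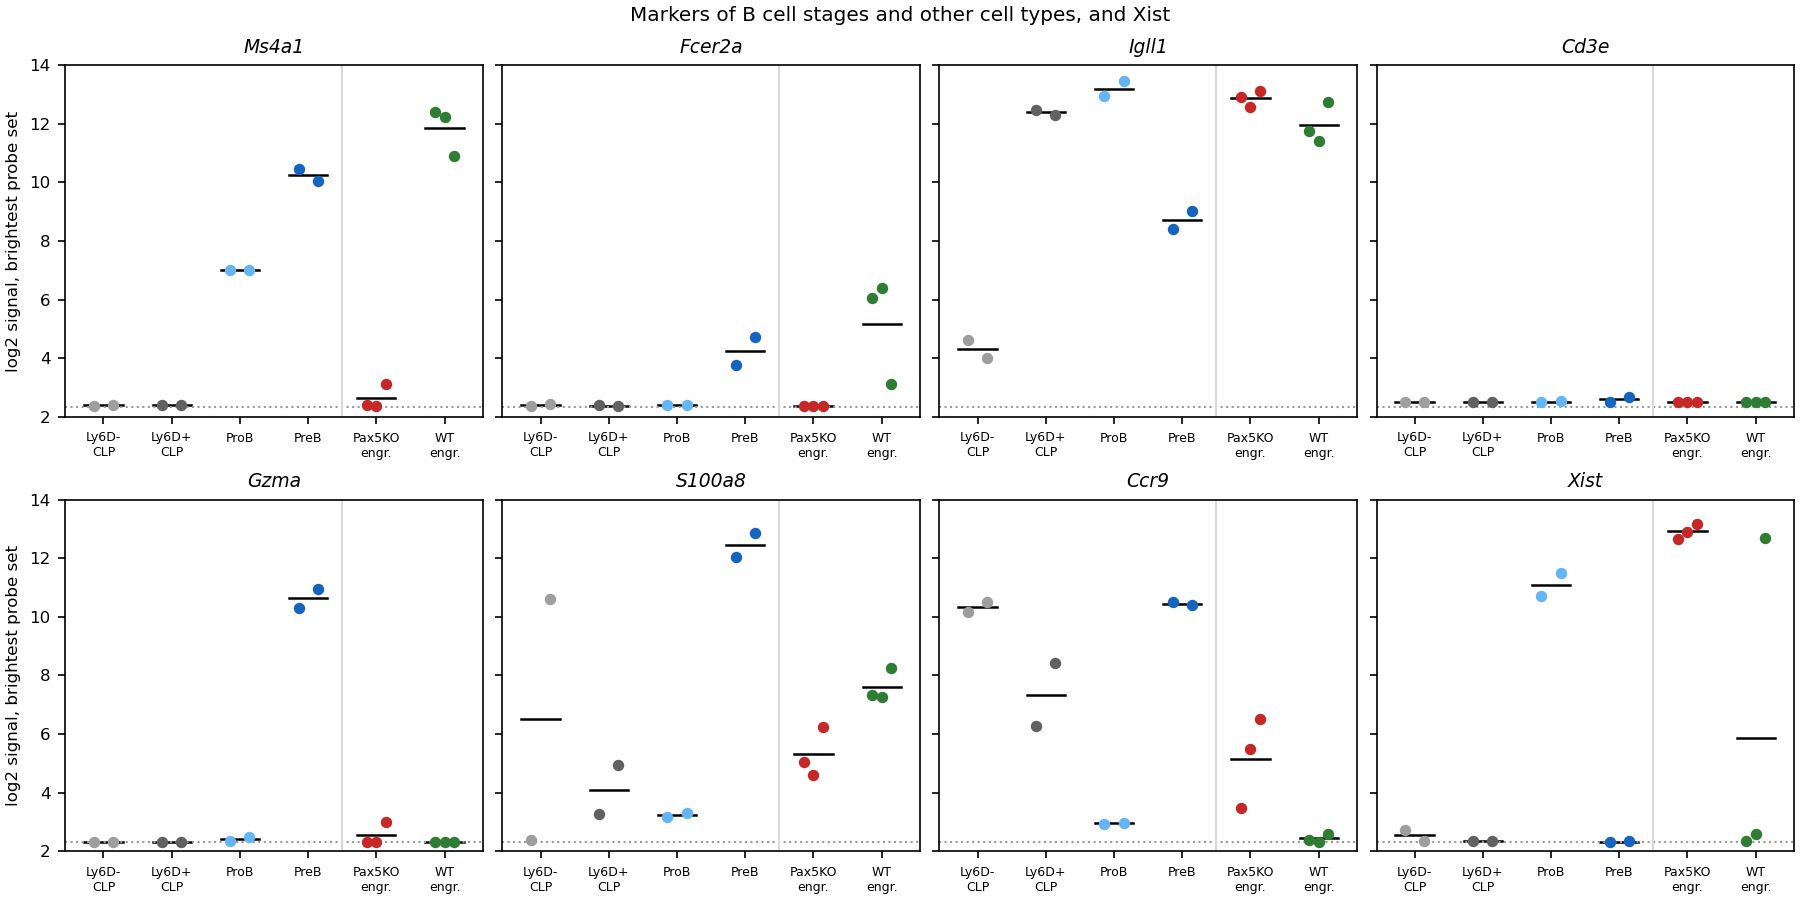
Log2 signal (y axis) of 7 marker genes and Xist on every array (points), by group (x axis), with group means as black lines and the lowest value dotted. Gzma is high on the PreB arrays alone. S100a8 is highest on the PreB arrays and Ly6D- CLP array 2, and reads 7.27 to 8.25 on WT engrafted arrays. Ccr9 is highest in PreB and Ly6D- CLP, and reads 6.26 and 8.42 in Ly6D+ CLP. Cd3e is at the floor in all groups, and Xist is high in ProB, in Pax5KO engrafted cells and on 1 WT engrafted array.

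The PreB against ProB comparison shares no arrays with that of the engrafted cells. Of all genes, 417 were lower in Pax5KO than in WT engrafted cells and 1156 were higher in PreB than in ProB; 209 were in both, which is 50.1% of the first and 18.1% of the second. Cd2, Cd83, Cd55, Cd40 and Tnfrsf13c were among these 209 of the 18193 measured genes.

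**Figure D4:**
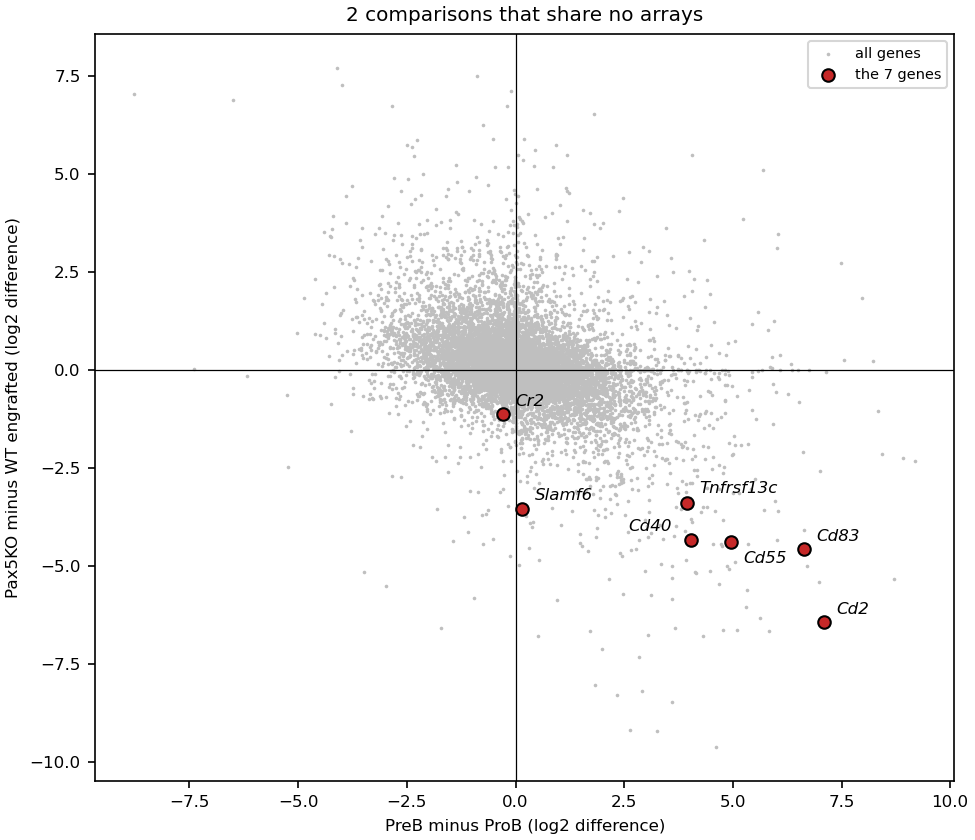
Each gene's log2 difference between PreB and ProB (x axis) and between Pax5KO and WT engrafted cells (y axis), with the 7 genes in red. Among the 7 genes Cd2 lies farthest out at 7.09 and -6.43, while Slamf6 lies near 0 on the x axis and at -3.53 on the y axis.

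From Ly6D- to Ly6D+ CLP, the step at which Ly6d marks B-directed progenitors, Slamf6 rose and no other gene of the 7 was called, where 0.813% of all genes rose, 0.638% fell and 1.45% did either. Slamf6 read 6.33 and 7.12 in Ly6D+ CLP, against 3.03 and 3.14 in Ly6D- CLP, a rise of 3.64 (SE 0.51, limma adjusted p = 0.00962). It was not called with the array number as a block, with only those groups fitted (limma adjusted p = 0.501) or with array weights (0.243). With averaged probe sets the difference was 2.15 and was not called either (limma adjusted p = 0.206). The probe sets disagreed: the second differed by 0.46 (SE 0.61), and the dimmest read 2.32 and 7.04 in Ly6D+ CLP, against 2.32 and 2.35 in Ly6D- CLP.

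Tnfrsf13c read 7.93 and 7.90 in Ly6D+ CLP and 6.66 and 3.43 in Ly6D- CLP. Its difference of 2.87 (SE 0.85) was not called (limma adjusted p = 0.200), and the Ly6D- arrays lay over 3 units apart. It was 4.48 without Ly6D- CLP array 1 (limma adjusted p = 0.000571). Cd55 read 3.98 and 3.31 in Ly6D+ CLP, against 2.89 and 2.43 in Ly6D- CLP, a difference of 0.98 (limma adjusted p = 0.281). Cd2, Cd83 and Cr2 were at the floor in both groups.

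From Ly6D+ CLP to ProB none of the 7 genes was called by limma, where 7.29% of all genes were (1.93% higher, 5.36% lower), and none had an unadjusted p under 0.05. The largest difference was that of Slamf6, 7.57 on both ProB arrays against 6.33 and 7.12 in Ly6D+ CLP (0.84, SE 0.51, limma adjusted p = 0.390). Its second probe set was called: it read 6.49 and 6.41 in ProB, against 2.77 and 4.58 in Ly6D+ CLP (2.78, SE 0.61, limma adjusted p = 0.0376 over probe sets). Tnfrsf13c differed by -0.31 (SE 0.85) and Cd55 by -0.15 (SE 0.33).

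Set against normal ProB cells, Pax5KO engrafted cells differed in 1 of the 7 genes, where 1.02% of all genes were called lower, 4.22% higher and 5.24% either way. Slamf6 fell by 2.36 (SE 0.46, limma adjusted p = 0.023), from the values given above. It was no longer called once Pax5KO array 1 (limma adjusted p = 0.0544) or ProB array 1 or 2 (0.0587 and 0.1) was left out, at differences from -2.49 to -2.36. Its second probe set also fell, by 2.78 (SE 0.56). Tnfrsf13c differed by 0.06 (95% interval -1.70 to 1.82) and Cd55 by at least -0.93 (limma adjusted p = 0.141). Cd2 and Cd83 were at the floor and Cd40 near its background value in both groups. Progenitor markers lay at 6.78 to 7.97 on Pax5KO and 5.78 to 6.0 on ProB arrays. Dendritic markers lay at 4.14 to 4.48 and 3.20 to 3.39, with Itgax, Siglech, Xcr1 and Zbtb46 at the floor in both groups. The part of these markers was not tested. Transplant and sort differ between these groups and cannot be told apart from the genotype.

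Between WT engrafted and PreB cells 2 of the 7 genes were called. Cd83 and Cd55 were lower in WT engrafted cells, by 2.15 (SE 0.50, limma adjusted p = 0.0359) and 1.51 (SE 0.30, limma adjusted p = 0.0187), where 2.86% of all genes were lower, 4.52% higher and 7.38% either. Both calls ended without either PreB array, with limma adjusted p from 0.0659 to 0.148; that of Cd83 also ended without WT engrafted array 1 (0.0532). The other Cd55 probe sets differed by -1.39 and -0.41 and were not called (limma adjusted p = 0.0512 and 0.85 over probe sets), nor was the average of the Cd55 probe sets (-1.10, limma adjusted p = 0.0570). Without WT engrafted array 3, Cr2 was called as well (1.68, limma adjusted p = 0.0426). Cd2 differed by -0.81 (95% interval -1.58 to -0.05), Cd40 by 0.55 (-0.29 to 1.39), Tnfrsf13c by -0.49 (-2.25 to 1.27) and Slamf6 by 1.02 (-0.04 to 2.08), none of them called. The marker transcripts of other blood cells listed for PreB differ here too, Gzma being lower in WT engrafted cells (at least -8.31, SE 0.22). Igll1 and Vpreb1 of the B lineage list were higher there, by 3.27 (limma adjusted p = 0.00199) and 1.83 (limma adjusted p = 0.0417). The actin gap was 7.27 and 6.71 in PreB and 2.51 to 3.47 on WT engrafted arrays. The part of these markers and of RNA quality was not tested. Transplant, fetal liver origin and sort also differ between these groups and cannot be told apart here.

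The order of the 6 groups is that of the chosen probe set of each gene. PreB was highest for Cd2, Cd83, Cd55 and Tnfrsf13c, with WT engrafted cells next, and WT engrafted cells were highest for Cd40, Slamf6 and Cr2. For Cd40 these top groups overlapped. The second probe sets put PreB first. There Cd40 averaged 7.45 in WT engrafted and 7.74 in PreB cells, and Slamf6 6.74 in WT engrafted and 7.73 in PreB cells. The dimmest probe sets put WT engrafted cells first. There Cd40 averaged 4.59 in WT engrafted and 2.92 in PreB cells, and Slamf6 7.26 in WT engrafted and 6.34 in PreB cells. For Cd2 and Cd83 the other 4 groups were at the floor and have no order. For Tnfrsf13c, Ly6D+ CLP (mean 7.91), Pax5KO engrafted (7.66) and ProB cells (7.60) overlapped, with Ly6D- CLP lowest at 5.05 ± 2.28 (SD, n = 2). For Slamf6 the order from the top was WT engrafted, PreB, ProB, Ly6D+ CLP, Pax5KO engrafted and Ly6D- CLP, where only PreB and ProB overlapped among neighbours. Of the 5 neighbouring pairs in that order only the last was called by limma, Ly6D- CLP minus Pax5KO engrafted cells at -2.12 (SE 0.46, adjusted p = 0.0398); WT engrafted against PreB, Ly6D+ CLP against ProB (adjusted p = 0.390) and Ly6D+ CLP against Pax5KO cells (adjusted p = 0.210) were not called.

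**Figure D5:**
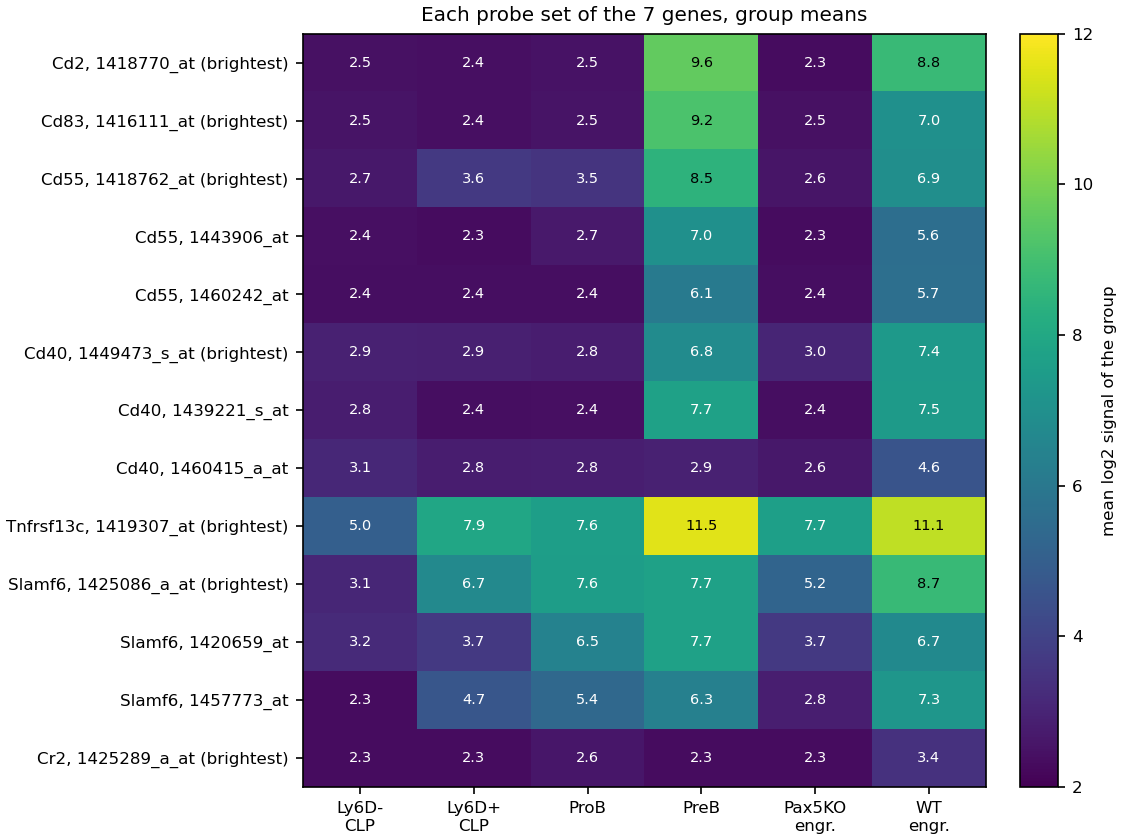
Group means (colour and printed number, log2 signal) of the 13 probe sets with a single symbol (rows) in the 6 groups (columns). Within Cd55 the 3 probe sets are high in PreB and WT engrafted cells, the dimmest Cd40 probe set stays at 2.9 in PreB, and the Slamf6 probe sets differ most from each other in Ly6D+ CLP.

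Likeness between the genes is given as Pearson's r over the 14 arrays, as a description: arrays of a group share their cell type, and the floor adds shared values. Cd2, Cd83, Cd55 and Cd40 correlated with each other at r from 0.935 (Cd55 and Cd40) to 0.983 (Cd2 and Cd83). Tnfrsf13c correlated with these 4 at 0.852 to 0.895, Slamf6 at 0.623 to 0.710, and Cr2 at 0.390 to 0.510. The genes most like Cd2 were Zkscan16 (r = 0.996), Klhl14 (0.994) and Mturn (0.994), those most like Cd83 were Zkscan16 (0.992), Sertad4 (0.991) and Stx11 (0.991), and those most like Cd55 were Arhgap24 (0.980), Sertad4 (0.979) and Nuak1 (0.978). Cd40 was most like Polm, a DNA polymerase of end joining (0.992), 4930426D05Rik (0.990) and Blvrb (0.987). Tnfrsf13c was closest to Cerk (0.959), Gramd4 (0.952) and Lynx1 (0.943), and Slamf6 to Bst1 (0.938), Arntl (0.930) and D6Wsu163e (0.928). Cr2 was closest to Grb7 (0.923), Fcer2a (0.782) and Ctsz (0.761).

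The gene lists from here on were chosen with earlier results of these data known, so their counts are not independent evidence. Among 44 measured genes listed as other B cell surface and maturation genes, 23 fell and 2 rose in Pax5KO against WT engrafted cells. The median difference was -1.67, against 0 over all genes, of which 2.29% fell and 3.64% rose. The largest falls were those of Fcrla, Ms4a1 (CD20), Cd72 and Fcmr, at -9.61, -9.21, -9.17 and at least -8.48, and the rises were Cd69 (1.76) and Cd81 (0.94). From ProB to PreB 19 rose and 1 fell (median 1.73), against 6.35% and 5.19% of all genes, led by Klf2 (5.10), Fcrla (4.62), Cxcr4 (4.23) and Fcmr (3.60). Fcrla, Ms4a1, Fcmr and Cd22 had already risen from Ly6D+ CLP to ProB, where 7 genes of the list rose and 5 fell, against 1.93% and 5.36% of all genes. Fcrla, for example, read 8.01 and 9.10 in ProB, against 2.46 and 2.51 in Ly6D+ CLP. In Pax5KO engrafted cells Cd72 (-6.22), Fcrla (-5.90) and Ms4a1 (-4.38) were also below ProB; 8 genes of the list fell there and 3 rose, against 1.02% and 4.22% of all genes. From Ly6D- to Ly6D+ CLP 7 rose, among them Pou2af1 (at least 7.92) and Ly6d (7.46), whose protein the sort itself used, and none fell, against 0.813% and 0.638% of all genes. In WT engrafted against PreB cells 7 were higher, among them Cd22 (2.72), and 2 were lower, Cd69 (-4.86) and Cxcr4 (-2.60), against 4.52% and 2.86% of all genes.

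CD40 and the BAFF receptor act through TRAF adaptors on NF-κB, and 25 genes of these pathways and their ligands were measured. From ProB to PreB 9 rose and 2 fell (median 1.11, against 0 over all genes, of which 6.35% rose and 5.19% fell). Birc3, a ubiquitin ligase of this pathway, read 11.23 and 10.85 in PreB and averaged 6.07 in ProB, and rose by 4.97 (SE 0.70, limma adjusted p = 0.00279). The NF-κB subunits Rel and Relb rose by 4.81 and 4.36 and the inhibitor Nfkbia by 3.89, while the adaptor Traf2 fell by 1.16. Tnfrsf17 was also called, although it was at the floor in both groups. The PreB arrays carried the transcripts of other blood cells and the wide actin gap given above, whose part here was not tested. In Pax5KO against WT engrafted cells Bcl3 (-2.84), Relb (-2.27) and Nfkbia (-1.83) fell, none rose, and 22 were not called (median -0.56), against 2.29% of all genes that fell and 3.64% that rose. Relb read 4.77, 4.03 and 4.85 in Pax5KO cells and 6.31, 7.07 and 7.09 in WT engrafted cells. Against ProB, Pax5KO cells had more Map3k14, the kinase of the BAFF receptor pathway (at least 2.80), Rela (1.81) and Nfkbia (1.06), where 4.22% of all genes were higher. WT engrafted cells had less Rel (-3.78), Tnfaip3 (-2.82) and Nfkbia (-0.997) than PreB cells, and more Tnfrsf13b (TACI, 2.401), Traf2 (1.66) and Rela (1.18), where 2.86% of all genes were lower and 4.52% higher. From Ly6D- to Ly6D+ CLP only Traf3ip2 was called (1.54), against 1.45% of all genes, and from Ly6D+ CLP to ProB Icam1 (-2.01) and Rela (-1.53) fell, with Tnfrsf17 called at the floor, against 7.29% of all genes called. The ligands stayed low: Cd40lg was at the floor in every group, and Tnfsf13b (BAFF) in every group but Ly6D+ CLP, where it read 2.32 and 2.92.

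Of 21 measured complement receptors and regulators, 2 rose and 1 fell in Pax5KO against WT engrafted cells (median 0), where 3.64% of all genes rose and 2.29% fell. From ProB to PreB 1 rose and 2 fell, where 6.35% of all genes rose and 5.19% fell. At this size such counts lie near the background, so the genes are named singly and nothing is read from the list. The fall was that of Adgre5 (CD97), a binding partner of CD55: it read 4.49, 6.06 and 5.51 in Pax5KO cells and 10.19, 10.00 and 9.88 in WT engrafted cells, a difference of -4.67 (SE 0.37, limma adjusted p = 0.000152). Adgre5 rose from Ly6D+ CLP to ProB by 2.93 and again to PreB by 2.41. Its difference between Pax5KO cells and ProB was -2.08. Cd81, a tetraspanin, and Ifitm1, an interferon-induced membrane protein, rose by 0.94 and 5.19 in Pax5KO cells. Ifitm1 fell by 3.75 from Ly6D+ CLP to ProB and was 6.51 higher in Pax5KO cells than in ProB. From ProB to PreB C1qbp (-1.36) and Cd81 (-1.06) fell with Adgre5 the sole rise, and no gene of the list was called by limma from Ly6D- to Ly6D+ CLP or between WT engrafted and PreB cells.

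Of 17 measured genes of the SLAM and CD2 family with their ligands and adaptors, 3 fell and 1 rose in Pax5KO against WT engrafted cells (median 0.02), where 2.29% of all genes fell and 3.64% rose. Slamf9 read 3.45, 3.18 and 3.31 in Pax5KO cells and 7.51, 7.67 and 7.70 in WT engrafted cells, a difference of -4.31 (SE 0.33, limma adjusted p = 0.00012). Slamf7 differed by -4.04 and the phosphatase Ptpn6 (SHP-1) by -1.27, and Pstpip1, an adaptor that binds the CD2 tail, rose by 1.86. Slamf7 rose from Ly6D+ CLP to ProB by 4.49 and to PreB by 1.87, and in Pax5KO cells it was 2.41 below ProB. The PreB step had 4 rises and no fall, where 6.35% of all genes rose and 5.19% fell, with Slamf9 (3.40) the largest, Sh3kbp1 (1.32) and, close to the floor, Sh2d1a (at least 0.68). Pstpip1 (-3.01) and Cd244a (-4.16) fell from Ly6D+ CLP to ProB, and Pstpip1 was higher in Pax5KO cells than in ProB by 1.94. WT engrafted cells had more Ptpn6 (2.54) and Cd48 (1.48) than PreB cells and less Sh2d1a. Cd48, the ligand of CD2 in the mouse, was high in every group, between 8.12 and 11.05, and differed by -0.41 (SE 0.23, limma adjusted p = 0.520) between Pax5KO and WT engrafted cells. No gene of the list was called by limma from Ly6D- to Ly6D+ CLP.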

How the data were processed

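The series holds 14 Affymetrix 3′ arrays, and the authors deposited 1 log2 signal per probe set and array (45101 probe sets, 2.32 to 16.1). RMA, GCRMA and limma are named in the submitters' processing notes; which of them gave these values, and in what version, is not given in the sources used here. The values were used without further scaling. Array medians lay between 2.41 and 2.52, in the range called the floor, so they cannot show whether the arrays share a scale. Upper quartiles ran from 5.39 (ProB array 2) to 5.98 (Pax5KO engrafted array 1). Other scalings were run as alternatives. The precision of the values is limited by the number of arrays. Probe sets with 1 symbol (34945; 932 had several, 9160 none, 64 were controls) were named through the platform annotation and RefSeq GRCm38.p6 (34741 matched), and the brightest stood for a gene. Differences were fitted with limma 3.58.1 in R 4.3.3 on all 14 arrays (8 residual degrees of freedom, two-sided).

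Data with 18193 genes were simulated, of which 100 were lowered by 4 (log2) and 100 by 2. In the layout of Pax5KO against WT engrafted cells 86 and 41 of these were called. In that of PreB against ProB 68 and 23 were called. Of the unchanged genes, 17 and 9 were called in these layouts. Only falls were simulated, so a rise such as that to PreB was not. The lowered genes were drawn from a middle range of mean signal over all arrays. The means of Cd2 (4.81), Cd83 (4.41), Cd55 (4.64), Cd40 (4.43) and Cr2 (2.60) lie below that range. The simulated rates therefore do not give the power for these genes. The named genes are the 7 genes, for each the 3 with the highest r among 4266 genes whose group means span at least 2, up to 4 called genes per direction of 4 fixed lists, and known ligands; C3 was not analysed here. The 7 genes and the lists were chosen with earlier results of these data known, and the lists are not independent evidence.

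Deviations from the group mean of engrafted arrays with the same number correlated at r = 0.134, 0.296 and 0.586. Different numbers reached 0.440 (Pax5KO array 1 with WT array 2) and 0.239 (Pax5KO array 2 with WT array 1). The other pairs with different numbers had negative r. These values do not decide whether the arrays are paired. The main fit has no block, and the block is given where it changed a call. PreB arrays carry numbers 2 and 3 in titles and 1 and 2 in descriptions; the title number names them and the description number pairs them with ProB. Alternatives were the fit of only the compared groups, the block, array weights, averaged probe sets, filters on dim genes and on genes at the floor, other scalings, a term for high Xist and leaving out each array.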

Additional observations from a re-analysis of the deposited data

How the results depend on the processing

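The 6 falls in Pax5KO against WT engrafted cells became 5 to 7 over all alternatives, and 5 with the replicate block, where Tnfrsf13c was not called. Array weights added Cr2 (-1.45, limma adjusted p = 0.0256). The 5 rises to PreB became 3 when only those groups were fitted, 4 with the replicate block (Tnfrsf13c at limma adjusted p = 0.0601) and 4 without any 1 array. From Ly6D- to Ly6D+ CLP the count was 0 with only those groups, the replicate block, array weights or averaged probe sets, and 1 to 2 without 1 array (2 without Ly6D- CLP replicate 1). Against ProB, Pax5KO cells had 0 calls with only those groups or array weights, 2 with equal medians or quantile normalization, where Cd55 was added, and 0 to 1 without 1 array. WT engrafted against PreB cells gave 0 with only those groups, 1 with averaged probe sets and 0 to 3 without 1 array. The step from Ly6D+ CLP to ProB stayed at 0. With the dimmest probe set of each gene 5 of 7 were called between the engrafted groups. With a replicate block of numbers shared by engrafted and other arrays, chosen after seeing the data, there were 0 calls against ProB (Slamf6 at -2.13, limma adjusted p = 0.0525) and 1, Cd55, in WT engrafted against PreB cells (Cd83 at -1.85, limma adjusted p = 0.0639).

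Of 455 single values under an alternative, 399 kept direction and call, 34 lost and 6 gained the call, and 16 turned direction, all of them uncalled. These were Cd40 from Ly6D- to Ly6D+ CLP (0.0135, quantile normalization), and from Ly6D+ CLP to ProB Cd55 (0.0659 averaged, 0.15 equal medians, 0.095 quantile, -0.48 to 0.19 without 1 array), Cd40 (0.00946 averaged, 0.23 equal medians) and Tnfrsf13c (-0.67 to 0.0377 without 1 array). Slamf6 turned from ProB to PreB (-0.34 to 0.66 without 1 array). Between Pax5KO and ProB cells Cd40 (-0.10, equal medians) and Tnfrsf13c turned (-0.13 array weights, -0.30 equal medians, -0.23 quantile, -0.29 to 0.41 without 1 array, -0.00074 shared block). The causes were not tested. Equal medians shifted arrays by -0.31 to 0.22. Arrays of the other stages share only a number: same-numbered deviations correlated at -0.0517 for the CLP pair, -0.0387 for ProB with Ly6D+ CLP and 0.105 for PreB with ProB, and the replicate block moved the calls over all genes to 169, against 264, from Ly6D- to Ly6D+ CLP. Leaving out 1 array of a pair assumes that the lone array varies like the others. Signals near the floor limit Cr2 in every group, and Cd2, Cd83, Cd55 and Cd40 before PreB.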
